A study of Homo sapiens with 10 samples.

Results

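The 36 genes described here encode the enzymes and transporters of glycolysis and lactate handling, together with HIF1A and genes that cells switch on when oxygen is short. They were chosen by symbol, and all 36 were found among 25275 gene symbols in each of 2 deposited RNA-seq tables. The libraries come from OCI-LY10 and TMD8, established human cell lines of the activated B-cell type of diffuse large B-cell lymphoma. Each line was transduced with a control shRNA (named SC4 in the labels), STAT3 shRNA 10 or STAT3 shRNA 16, and every shRNA, the control included, was switched on with doxycycline at 20 ng/ml for 2 days. Each shRNA has 1 library per line. In OCI-LY10 the 3 libraries are named. The 3 TMD8 columns carry no name, so they are given by their position in the table (columns 2, 3 and 4) and no shRNA is assigned to them. The 4 STAT3 ChIP-seq samples are not analysed here.

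Glycolysis splits glucose into pyruvate, and lactate dehydrogenase then turns pyruvate into lactate, which leaves the cell through monocarboxylate transporters. Hypoxia-inducible factor 1 is a dimer of HIF1A and ARNT. In normal oxygen the EGLN prolyl hydroxylases mark HIF1A protein for destruction through VHL, so HIF1A activity is set largely after transcription. When oxygen falls, HIF1A binds hypoxia response elements in many glycolytic genes and in genes of angiogenesis, mitophagy and collagen hydroxylation. Lymphoma cells in culture commonly take up much glucose and release lactate even with oxygen present.

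The values are FPKM, fragment counts scaled to gene length and sequencing depth, so levels of different genes can be set side by side. The library labelled OCI-LY10 control went against its label in its likeness to the others. Over 11445 genes outside small RNA genes, its log2(FPKM + 1) had a Pearson's r of 0.940 to 0.963 with the TMD8 columns and of 0.852 with either STAT3 shRNA library of OCI-LY10. Those shRNA libraries had an r of 0.807 to 0.824 with TMD8. Whether that library is as labelled was not tested, so each difference from control below is a difference between libraries as labelled, and line and shRNA cannot be told apart in it. Within a table, r was 0.994 between the shRNAs and 0.979 to 0.992 among the TMD8 columns. No p is given, since genes do not replicate each other. STAT3 was at 16.5 FPKM in the library labelled OCI-LY10 control, 11.1 with shRNA 10 and 10.6 with shRNA 16, and at 120.3, 24.3 and 22.5 in TMD8 columns 2, 3 and 4. All 8 B-cell markers were detected in the 6 libraries, and 5 were called higher and 2 lower in the shRNA libraries (limma, adjusted p below 0.05). BLK stood at 4.94 FPKM in the library labelled control against 87.9 and 93.5, CD79B at 226 against 1139 and 1226, and IRF4 at 411 against 73.8 and 80.8. Summed markers stayed at or under 0.758 FPKM for T and NK cells, 1.60 for myeloid and 0.135 for erythroid cells. CD3D, CD2, NCAM1, HBB and KRT19 were listed at 0 in OCI-LY10. Summed fibroblast markers were at 5.28 FPKM in the library labelled control, 0.0932 and 0.0981 in the shRNA libraries and 3.74 to 5.40 in TMD8, and epithelial markers at 2.16, 5.47, 5.98 and 3.46 to 4.28. Within the epithelial sum, EPCAM was at 0 in control and in TMD8 and at 4.39 in both shRNA libraries. KRT8 went the other way, at 1.96 in control, 0.740 and 1.17 with the shRNAs and 3.34 to 4.18 in TMD8. The part of these differences in the results below was not tested.

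Of the 36 genes, 34 had a mean of at least 1 FPKM in OCI-LY10 and 33 in TMD8. The genes below that mean in both lines were SLC2A3, a neuronal-type glucose transporter, at 0.248 to 0.483 FPKM over the 6 libraries, and EGLN3, an oxygen sensor, at 0.0187 to 0.113. SLC16A3, which exports lactate, also lay below it in TMD8, at 0.682, 1.15 and 0.940 FPKM. Levels of the others spanned a wide range in every library. GAPDH, which oxidises glyceraldehyde 3-phosphate, was the most abundant, at 2083 to 7274 FPKM over the 6 libraries. ALDOA, TPI1, ENO1, PKM, LDHA and LDHB lay at 224 to 1516 FPKM. The regulators PFKFB3 and PFKFB4, the glucose transporter SLC2A1 and the kinase PDK1 were all at or under 15.2 FPKM.

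**Figure D1:**
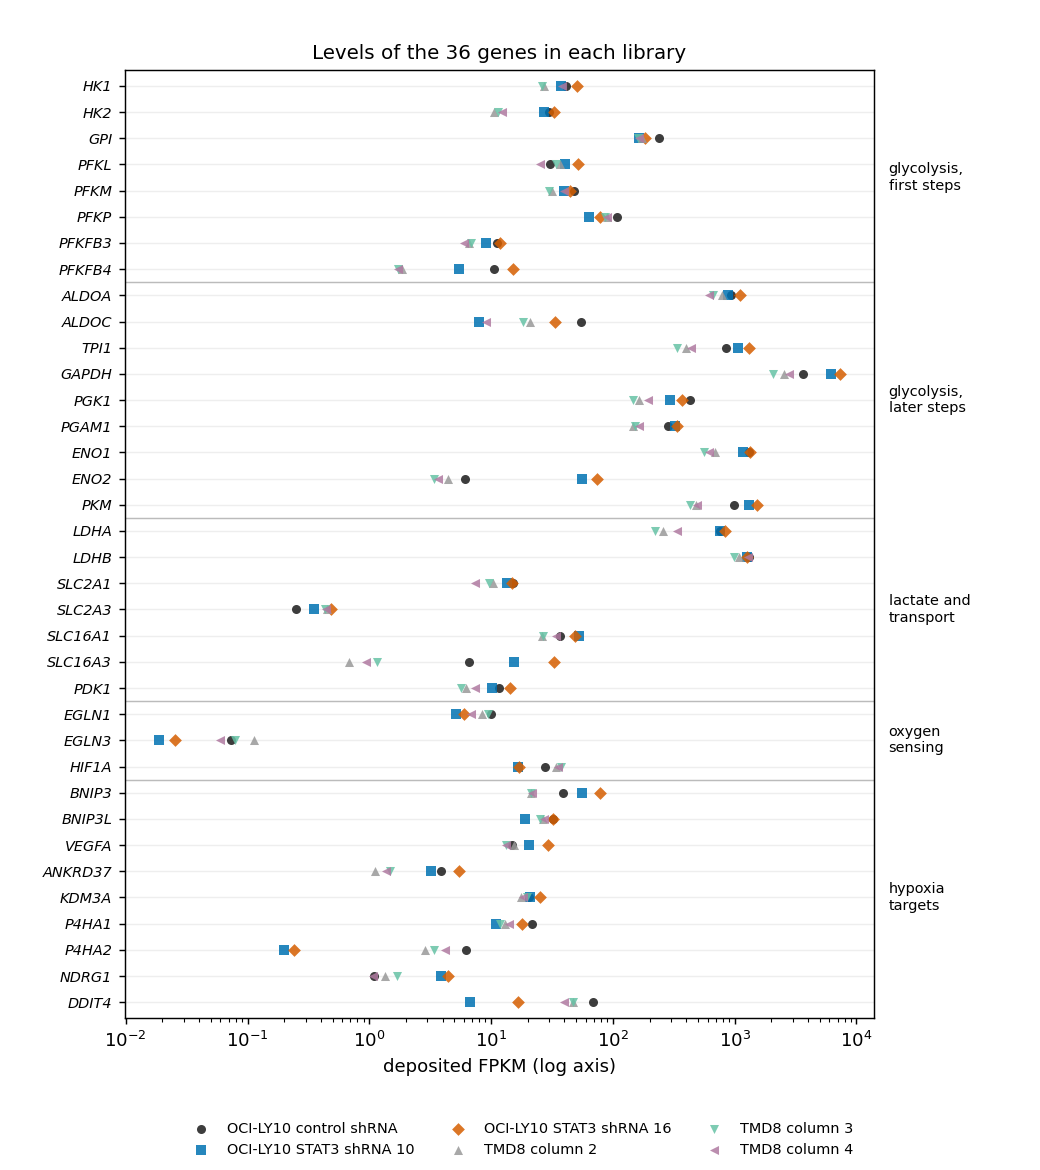
Deposited FPKM (log axis) of the 36 genes in the 3 OCI-LY10 libraries and the 3 unnamed TMD8 columns, grouped by role, 1 point per library. GAPDH lies highest, at 2083 to 7274 FPKM, and EGLN3 lowest, at 0.0187 to 0.113 FPKM. The tables of the lines were normalized separately.

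The STAT3 shRNA libraries were compared with the library labelled control in OCI-LY10, to ask which genes depend on this transcription factor. Of the 34 tested members, 2 rose (ENO2 and NDRG1) and 3 fell (HIF1A, EGLN1 and P4HA2) with the STAT3 shRNAs (limma, adjusted p below 0.05). Over all 11162 genes tested, 20.3% were called higher and 17.4% lower, beside 5.88% and 8.82% of the members, and this difference was not tested. At an unadjusted p below 0.05 (limma), 4 members were higher (11.8%) and 5 lower (14.7%), beside 29.0% and 23.3% of all genes. The median log2 change of the members was 0.02, beside 0.06 over all genes, and the median absolute change was 0.45 beside 0.49. The members' median was 0.19 without shRNA 10 and -0.15 without shRNA 16, so its sign depended on which shRNA was kept. Since the control has no replicate, the p-values hold no spread among control libraries. They rest on the spread between the 2 shRNA libraries, which limma moderates toward the trend over all genes. That spread was wider in these genes: the median absolute log2 difference between the shRNAs was 0.30 over members and 0.12 over all genes.

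The first steps of glycolysis showed no call among 8 genes. HK1, a broadly expressed hexokinase that traps glucose as its phosphate, stood at 41.3 FPKM in the library labelled control, 37.5 under shRNA 10 and 51.2 under shRNA 16. HK2, the hexokinase of many tumours, stood at 30.1, 27.0 and 32.9. In both genes the library labelled control lay between the 2 shRNA libraries. GPI, which converts glucose 6-phosphate to fructose 6-phosphate, was at 240.7 FPKM in the library labelled control against 164 and 185 in the shRNA libraries (log2 change -0.46, SE 0.12, limma adjusted p = 0.0828). Among the phosphofructokinase subunits, which carry out the committed step, PFKP was at 108.8 FPKM in control against 63.2 and 78.5, PFKL at 30.3 against 40.7 and 51.7, and PFKM at 47.5 against 39.8 and 44.3. Both shRNA libraries lay below control for PFKP and PFKM and above it for PFKL, and no subunit passed the test. PFKFB3 and PFKFB4 make fructose 2,6-bisphosphate, which activates phosphofructokinase. PFKFB3 stood at 11.3, 9.01 and 11.8 FPKM and PFKFB4 at 10.6, 5.42 and 15.2, again with control between the shRNAs.

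Among 9 genes of the later steps only ENO2, the neuronal type of enolase, was called. It stood at 6.10 FPKM in the library labelled control, 55.3 under shRNA 10 and 73.6 under shRNA 16. Both shRNA libraries lay far above control, a log2 change of 3.19 (SE 0.23, limma adjusted p = 0.0150). ENO1, the common enolase, stood at 1319, 1167 and 1339 FPKM, so it remained by far the main form in every library. GAPDH was at 3646 FPKM in the library labelled control against 6185 and 7274 in the shRNA libraries, a log2 change of 0.88 (SE 0.18) that missed the threshold (limma adjusted p = 0.0563). It passed under quantile normalization (adjusted p = 0.0338), when 5 FPKM was added before the log (0.0486), and when small RNA genes were left out (0.0225). RefSeq names 65 GAPDH pseudogenes, so reads of this gene may be split among copies and its level is uncertain. The same holds for BNIP3, with 46 named pseudogenes, PGAM1 with 13, LDHA with 6 and PKM with 5.

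ALDOC, the brain type of aldolase, stood at 54.7 FPKM in the library labelled control, 7.97 under shRNA 10 and 33.3 under shRNA 16. Both shRNA libraries lay below control, but they differed so much from each other that the change did not pass (log2 change -1.67, SE 1.03, limma adjusted p = 0.292). ALDOA, the main aldolase, stood at 929, 878 and 1107 FPKM. TPI1, which interconverts the triose phosphates, was at 851, 1071 and 1317 FPKM. PKM, the pyruvate kinase of most tissues, was at 996, 1319 and 1516. For TPI1 and PKM both shRNA libraries were above control without passing the test (limma adjusted p = 0.151 and 0.0963). PKM passed under quantile normalization (adjusted p = 0.0290). PGK1, which yields ATP, was at 428, 294 and 371 FPKM, and the mutase PGAM1 at 284, 322 and 339.

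No gene of lactate handling and transport was called among 6 tested. LDHA, which favours lactate formation, stood at 765 FPKM in the library labelled control, 757 under shRNA 10 and 839 under shRNA 16. LDHB, the form that favours pyruvate, stood at 1314, 1274 and 1269. The 3 libraries were close to each other for both genes. SLC16A3, the lactate exporter of strongly glycolytic cells, was at 6.64 FPKM in control, 15.3 with shRNA 10 and 32.9 with shRNA 16. Both shRNA libraries were above control, and the change did not pass (log2 change 1.62, SE 0.57, limma adjusted p = 0.128). SLC16A1, the other lactate carrier, was at 37.0, 52.8 and 48.5 FPKM (limma adjusted p = 0.0701). SLC2A1, the main glucose transporter of dividing cells, was at 15.1, 13.5 and 15.0. PDK1, a kinase that inhibits pyruvate dehydrogenase, was at 11.6, 10.2 and 14.4.

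The oxygen-sensing genes HIF1A and EGLN1 both fell. HIF1A stood at 27.6 FPKM in the library labelled control, 16.5 under shRNA 10 and 16.9 under shRNA 16. The shRNA libraries almost coincided and lay below control, a log2 change of -0.69 (SE 0.09, limma adjusted p = 0.0297). A lower level in all cells and fewer expressing cells cannot be told apart in such bulk libraries. RefSeq names antisense genes at HIF1A, of which HIF1A-AS1 and HIF1A-AS2 are in the table, and use of strand is not given in the sources used here, so this value is uncertain. EGLN1, the main prolyl hydroxylase acting on HIF1A, stood at 10.0 FPKM in the library labelled control, 5.12 under shRNA 10 and 5.98 under shRNA 16 (log2 change -0.76, SE 0.14, limma adjusted p = 0.0482). A pseudocount of 0.1 FPKM ended this call (adjusted p = 0.0566), as did testing all genes without a filter (0.0985).

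Hypoxia targets did not move as a unit among 9 tested. P4HA2, a collagen prolyl hydroxylase subunit, stood at 6.21 FPKM in the library labelled control, 0.199 under shRNA 10 and 0.239 under shRNA 16, a log2 change of -2.57 (SE 0.08, limma adjusted p = 0.00733). P4HA1, the other catalytic subunit of that enzyme, was at 21.5, 11.1 and 17.8 FPKM and did not pass (limma adjusted p = 0.287). P4HA2 passed the filter on low values only through the library labelled control, and its log2 change ran from -4.31 to -1.10 as the pseudocount went from 0.1 to 5 FPKM. RefSeq also names an antisense gene at P4HA2, so strand limits that value too. NDRG1, a stress-induced gene of cell differentiation, was at 1.098 FPKM in control against 3.87 and 4.41, a log2 change of 1.29 (SE 0.12, limma adjusted p = 0.0198). Testing all genes without a filter ended this call (adjusted p = 0.0541), and a pseudocount of 5 FPKM brought the change to 0.58.

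DDIT4, a brake on mTORC1 that hypoxia and other stresses induce, stood at 68.7 FPKM in the library labelled control, 6.75 under shRNA 10 and 16.7 under shRNA 16. Both shRNA libraries were far below control, but the change did not pass (log2 change -2.57, SE 0.64, limma adjusted p = 0.0749). It passed when small RNA genes were left out (adjusted p = 0.0277). VEGFA, the angiogenic growth factor, was at 14.9, 20.7 and 29.4 FPKM, and BNIP3, a mitophagy receptor, at 39.0, 56.2 and 79.1. Both shRNA libraries were above control for these 2 genes, without a call (limma adjusted p = 0.155 and 0.133). BNIP3L, a related mitophagy receptor, was at 32.3, 19.0 and 32.2 FPKM. ANKRD37, a small ankyrin-repeat protein, was at 3.85, 3.23 and 5.48, and KDM3A, a histone demethylase, at 20.4, 20.7 and 25.2.

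**Figure D2:**
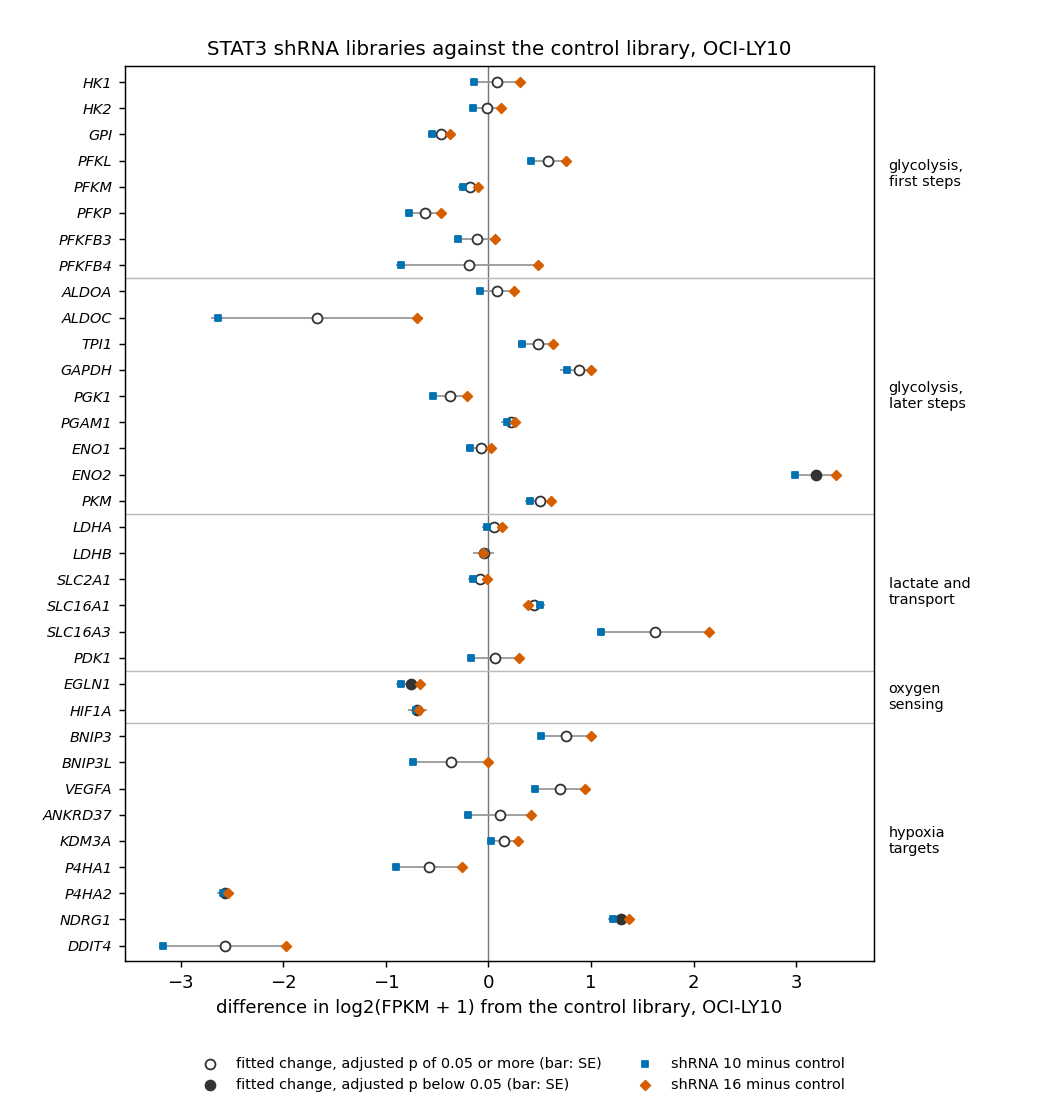
Difference in log2(FPKM + 1) from the library labelled control for each of the 34 tested genes in OCI-LY10, with shRNA 10 (squares), shRNA 16 (diamonds) and the limma estimate over both (circles, bars are SE, filled where adjusted p is below 0.05). Filled circles mark ENO2, NDRG1, P4HA2, HIF1A and EGLN1, while ALDOC, DDIT4, PFKFB4 and SLC16A3 show wide gaps between the shRNAs.

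The 2 STAT3 shRNAs differed from each other across these genes in OCI-LY10. Of the 34 members, 32 (94.1%) had a higher level with shRNA 16 than with shRNA 10, beside 50.1% of all tested genes. The exceptions were LDHB and SLC16A1. The median log2 difference, shRNA 16 minus shRNA 10, was 0.30 over members and 0.00044 over all genes. At least 1.5-fold on the FPKM + 1 scale, 7 members were higher and 0 lower with shRNA 16. Over all genes 2.55% were that much higher and 1.07% that much lower. Each shRNA has 1 library, so this difference has no replicate check and no test. Depth with shRNA 16 was 0.731 times that with shRNA 10, and the part of depth was not tested.

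The 7 genes were ALDOC, PFKFB4, DDIT4, SLC16A3, BNIP3L, P4HA1 and ANKRD37. The FPKM ratio of shRNA 16 to shRNA 10 was 4.17 for ALDOC, the second largest difference in log2(FPKM + 1) among 10851 tested genes outside small RNA genes. It was 2.80 for PFKFB4 (rank 6), 2.48 for DDIT4 (rank 11) and 2.15 for SLC16A3 (rank 23). BNIP3L, ANKRD37 and P4HA1 had ratios of 1.69, 1.70 and 1.61. A further 4 members, HK1, PDK1, BNIP3 and VEGFA, also lay above percentile 95 of all tested genes, at log2 differences of 0.44 to 0.49. The difference was thus spread from the entry of glycolysis to hypoxia targets. By role, the median log2 difference was 0.49 over hypoxia targets, 0.32 over the first steps of glycolysis, 0.30 over the later steps and 0.14 over lactate handling and transport. HIF1A itself differed by 0.03 and EGLN1 by 0.19. The ratios of SLC2A3 and EGLN3, below the expression filter, were both 1.37, which equal read numbers would give at these depths.

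**Figure D3:**
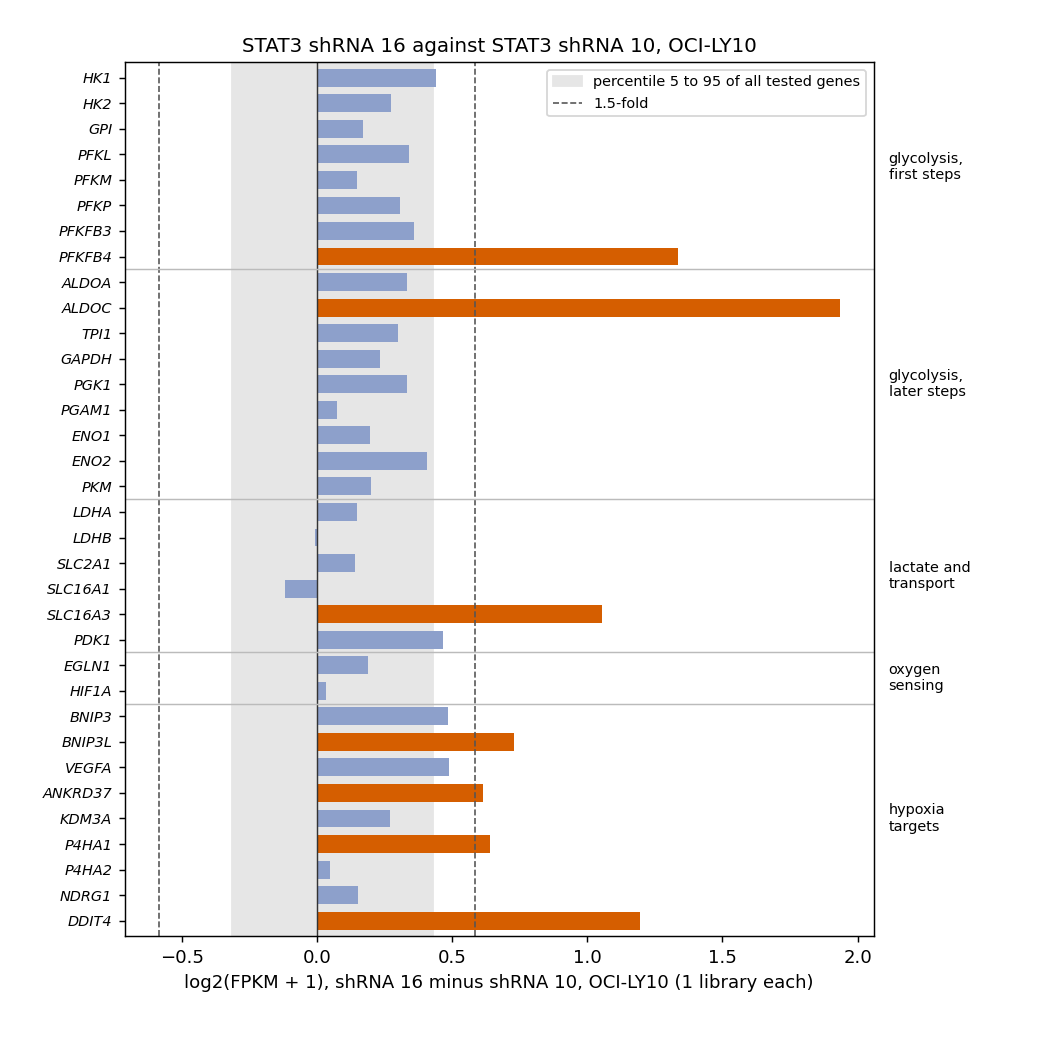
Difference in log2(FPKM + 1) between the shRNA 16 and the shRNA 10 library of OCI-LY10 for the 34 tested genes, 1 library each. Bars of 7 genes pass the 1.5-fold line (dashed) on the higher side and 0 on the lower. The grey band spans percentile 5 to 95 of all tested genes, from -0.32 to 0.43.

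Other HIF targets, from a list of 31 genes outside the 36, also tended to be higher with shRNA 16. Of 22 tested, 18 were higher with shRNA 16, 6 of them at least 1.5-fold and 0 at least 1.5-fold lower. Over all tested genes these shares were 50.1%, 2.55% and 1.07%. The median log2 difference was 0.33 over the list and 0.00044 over all genes. The lists were chosen with earlier results of these data known, and no test was run. These 6, named after their values were seen, include CA9, the tumour carbonic anhydrase, at 1.05 FPKM under shRNA 10, 4.20 under shRNA 16 and 6.92 in the library labelled control. HILPDA, a lipid droplet protein, was at 25.8, 56.8 and 97.1 in that order, and the clock-linked repressor BHLHE40 at 5.81, 13.6 and 23.1. ADM, MXI1 and KDM4B complete the 6, and in these shRNA 16 lay above the library labelled control. In the same order, ADM was at 4.69, 9.11 and 3.80 FPKM, MXI1 at 6.97, 11.2 and 8.74, and KDM4B at 4.78, 8.64 and 7.49. Other lists, read beside the same shares, were split. Of 7 other glycolytic genes 3 were higher with shRNA 16 and 0 at least 1.5-fold. Of 10 other components of the HIF pathway these counts were 4 and 0.

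Promoter sequences were taken from RefSeq (GRCh38.p14, a later build than the hg19 named for the deposited values) because 32 of the 34 genes were higher with shRNA 16 than with shRNA 10. The 250 bases before each listed start were searched on both strands for the ACGTG form of the hypoxia response element core. The STAT element TTCNNNGAA was searched in the same way. The table holds 59 starts of 31 members and lists none for BNIP3L, NDRG1, SLC16A1, SLC2A3 and VEGFA. The core was found at 22 of 59 member starts (37.3%), beside 18.5% of all 35116 starts. The members include genes chosen for their response to hypoxia, so this share does not bear on the difference between the shRNAs. Starts are not independent, since 12 members have more than 1. Among starts of the genes at least 1.5-fold higher with shRNA 16 it was found at 5 of 10, of which SLC16A3 alone has 5 starts, beside 17 of 48 (35.4%) for the other tested members. The STAT element was found at 2 of 59 member starts (3.39%), upstream of HK1 and PDK1, beside 6.57% of all starts. A match describes the letters alone. The following windows belong to the 5 genes of that group with a single listed start. Each ACGTG is in capitals, on whichever strand it lies.
ALDOC promoter, chr17:28576896-28577145, minus strand: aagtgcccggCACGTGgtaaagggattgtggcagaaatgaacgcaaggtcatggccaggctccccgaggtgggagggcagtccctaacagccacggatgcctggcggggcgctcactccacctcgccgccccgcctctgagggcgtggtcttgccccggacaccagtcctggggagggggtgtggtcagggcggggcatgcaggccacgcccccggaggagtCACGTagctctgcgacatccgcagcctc
PFKFB4 promoter, chr3:48556804-48557053, minus strand: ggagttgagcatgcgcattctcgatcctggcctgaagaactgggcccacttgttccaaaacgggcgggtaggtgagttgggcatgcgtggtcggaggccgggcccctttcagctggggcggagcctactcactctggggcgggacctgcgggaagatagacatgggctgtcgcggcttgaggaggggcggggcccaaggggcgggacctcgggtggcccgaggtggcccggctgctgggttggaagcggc
DDIT4 promoter, chr10:72273674-72273923, plus strand: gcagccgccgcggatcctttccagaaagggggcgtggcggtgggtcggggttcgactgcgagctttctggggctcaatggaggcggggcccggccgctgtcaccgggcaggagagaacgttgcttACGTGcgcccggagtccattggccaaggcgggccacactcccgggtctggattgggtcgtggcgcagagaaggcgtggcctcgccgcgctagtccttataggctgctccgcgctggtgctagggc
P4HA1 promoter, chr10:73096867-73097116, minus strand: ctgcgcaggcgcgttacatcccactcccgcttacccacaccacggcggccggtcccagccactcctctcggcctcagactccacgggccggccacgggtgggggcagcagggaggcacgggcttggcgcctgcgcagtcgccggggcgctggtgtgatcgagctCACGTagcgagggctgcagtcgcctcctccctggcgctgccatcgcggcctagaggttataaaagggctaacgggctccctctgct
ANKRD37 promoter, chr4:185396591-185396840, plus strand: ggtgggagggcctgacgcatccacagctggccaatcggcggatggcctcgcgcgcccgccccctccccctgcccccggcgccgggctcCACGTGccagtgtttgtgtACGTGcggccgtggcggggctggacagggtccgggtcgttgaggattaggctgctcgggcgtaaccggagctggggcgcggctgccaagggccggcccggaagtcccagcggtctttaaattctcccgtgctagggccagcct
In ALDOC the core begins 240, 239 and 28 bases before the start, where the first pair is a single CACGTG read on both strands. In ANKRD37 it begins at 162, 161 and 143 bases, where the first pair is again a single CACGTG. DDIT4 has a single ACGTG at 125 bases and P4HA1 at 86, and the window of PFKFB4 holds none on either strand. Other forms of the core, such as GCGTG, were not searched and are not marked.

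In TMD8 the median range over the 3 unnamed columns was about the same for members as for all genes, while fewer members passed 1.5-fold, a difference not tested. Of 33 members averaging 1 FPKM or more, 1 differed by at least 1.5-fold between its highest and lowest column on the FPKM + 1 scale, beside 11.5% of all 10888 such genes. That gene was ALDOC, at 20.8 FPKM in column 2, 18.2 in column 3 and 9.07 in column 4, so column 4 was low. Without column 4 no member passed. The median log2 range over the columns was 0.29 over members and 0.28 over all genes. Column 3 was the lowest for 16 of the 33 members (48.5%), beside 29.8% of all genes. GAPDH, for example, was at 2529, 2083 and 2787 FPKM, and LDHA at 258, 224 and 334. HK1 went from 27.0 and 26.2 in columns 2 and 3 to 38.4 in column 4, while PFKL went from 36.8 and 34.2 to 25.4. DDIT4, which differed between the OCI-LY10 shRNAs, was at 47.2, 46.7 and 39.4. PFKFB4 was at 1.85, 1.71 and 1.72, and BNIP3L at 26.5, 25.2 and 27.3. Below that mean, FPKM differed 1.68-fold between the highest and lowest column for SLC16A3 and 1.89-fold for EGLN3. No comparison between shRNAs was made in TMD8.

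Levels in the 2 lines were set side by side as percentiles within each library, because the tables were normalized separately, and without a test. The percentile was taken among 11794 genes averaging 1 FPKM or more in either table. Of 34 members, 18 ranked higher in all 3 OCI-LY10 libraries than in all 3 TMD8 columns, beside 21.2% of all genes. Only HIF1A ranked lower in all 3, beside 26.0% of all genes. Without the library labelled OCI-LY10 control 21 members ranked higher and 5 lower. The median percentile of the members was 80.2, 77.3 and 81.0 in the OCI-LY10 control, shRNA 10 and shRNA 16 libraries, against 74.5, 74.3 and 74.3 in TMD8 columns 2, 3 and 4.

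The members ranked higher in OCI-LY10 included HK2, PFKFB3, PFKFB4, most enzymes from TPI1 to LDHA, 3 transporters, PDK1, BNIP3, ANKRD37 and KDM3A. The phosphofructokinase subunits, both aldolases, HK1, GPI and LDHB overlapped between the lines. HK2 lay at percentiles 77.8, 74.2 and 78.3 in OCI-LY10 and 51.2, 52.6 and 54.6 in TMD8. SLC16A3 lay at 40.0, 61.3 and 78.3 against 7.50, 9.82 and 8.30, but entered the ranking only through OCI-LY10, where it is high. PFKFB4 lay at 52.5, 35.9 and 60.9 against 16.2, 14.3 and 14.5. BNIP3 lay at 82.3, 86.7 and 90.9 against 69.7, 69.8 and 69.7. The 3 libraries of a line did not overlap those of the other for any of these 4 genes. Other members among the 18 were parted by narrow gaps. The lowest OCI-LY10 and highest TMD8 percentiles were 68.5 and 67.5 for KDM3A, 99.7 and 99.5 for GAPDH, and 99.2 and 98.9 for ENO1. HIF1A went the other way, at 75.9, 63.1 and 63.9 in OCI-LY10 against 79.9, 82.3 and 80.4 in TMD8.

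For all 5 called members, and for DDIT4, the library labelled OCI-LY10 control lay nearer to TMD8 than to the STAT3 shRNA libraries of its own line. The 5 were called because control differed from both shRNA libraries, so that distance was set by the choice of genes. ENO2 lay at percentile 38.1 in control and 24.7 to 30.4 in TMD8, but at 86.5 and 90.0 with the shRNAs. DDIT4 lay at 89.8 in control and 82.3 to 85.8 in TMD8, against 41.1 and 63.7. P4HA2 lay at 38.6 and 22.7 to 28.7, against 5.61 and 5.68, and NDRG1 at 9.49 and 9.23 to 14.2, against 29.4 and 31.2. HIF1A, given above, followed that order, and EGLN1 lay at 51.0 in control and 39.5 to 47.2 in TMD8, against 34.7 and 37.6. STAT3 depletion cannot be told apart from any other difference between these libraries in these genes. Some members without a call went the other way, with control nearer to the shRNA libraries than to TMD8. HK2 lay at percentile 77.8 in control and 74.2 and 78.3 with the shRNAs, against 51.2 to 54.6 in TMD8. SLC2A1 lay at 61.5 in control and 57.8 and 60.6 with the shRNAs, against 41.2 to 50.4.

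The balance between related enzymes is a ratio within a library and so does not depend on scaling. LDHA made up 36.8%, 37.3% and 39.8% of the summed LDHA and LDHB FPKM in the OCI-LY10 control, shRNA 10 and shRNA 16 libraries. In TMD8 columns 2, 3 and 4 it made up 19.1%, 18.5% and 20.6%. The lines did not overlap, and within OCI-LY10 the share varied little. HK2 made up 42.2%, 41.9% and 39.1% of hexokinases 1 and 2 in OCI-LY10 and 28.2%, 30.5% and 24.3% in TMD8. SLC16A3 made up 15.2%, 22.5% and 40.4% of the 2 lactate carriers, against 2.55%, 4.14% and 2.70%. PFKFB4 made up 48.5%, 37.5% and 56.2% of PFKFB3 and PFKFB4, against 21.7%, 19.9% and 22.4%. SLC2A3 went the other way, at 1.62%, 2.55% and 3.13% of SLC2A1 and SLC2A3 in OCI-LY10 and 4.17%, 4.31% and 5.61% in TMD8. Its share rests on low values, 0.248 to 0.483 FPKM, below the expression filter in both lines. Of 12 such ratios, 5 were higher in OCI-LY10 without overlap, 1 was lower and 6 overlapped.

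The ratios of PFKP, P4HA2 and ENO2 set the library labelled control beside TMD8, and that of ALDOC did not. PFKP made up 58.3% of the phosphofructokinase subunits in the library labelled OCI-LY10 control and 56.6% to 57.9% in TMD8, but 44.0% and 45.0% with the shRNAs. P4HA2 made up 22.4% of the P4HA subunits in control and 18.1% to 23.0% in TMD8, against 1.77% and 1.32%. ENO2 made up 0.461% of enolases 1 and 2 in control and 0.592% to 0.638% in TMD8, against 4.52% and 5.21%. ALDOC made up 5.56% of aldolases A and C in control, 0.8998% with shRNA 10 and 2.92% with shRNA 16, and 1.46% to 2.65% in TMD8. Control was thus highest for ALDOC, above every other library. No test was run on these shares.

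**Figure D4:**
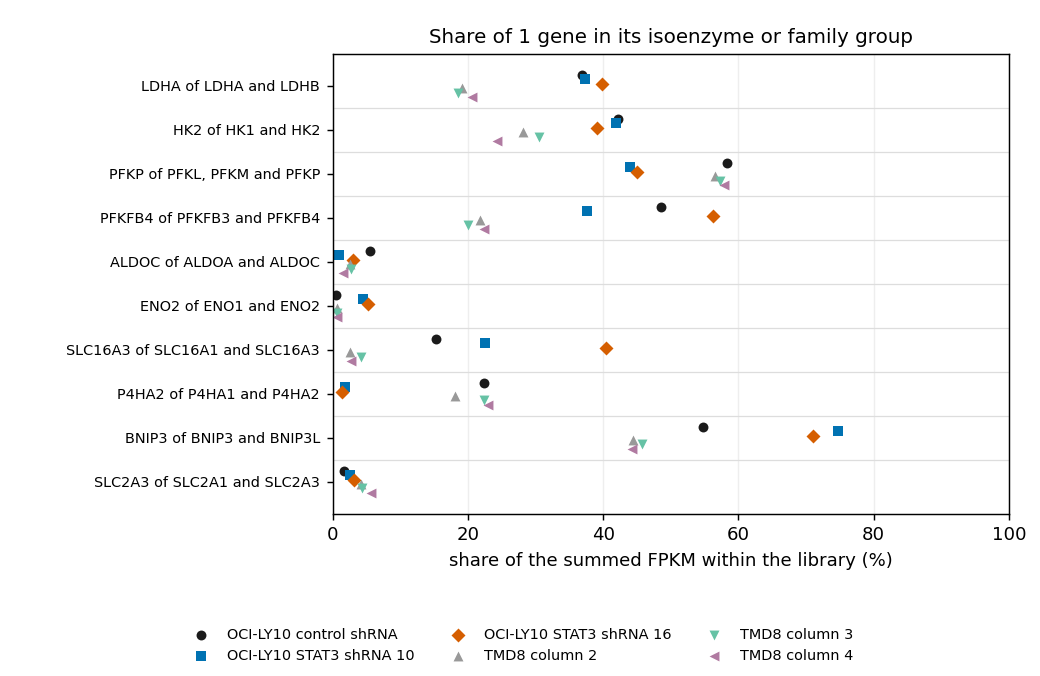
Share (%) of 1 gene in the summed FPKM of its isoenzyme or family group, within each of the 6 libraries, 1 point per library. LDHA takes 36.8% to 39.8% in OCI-LY10 and 18.5% to 20.6% in TMD8, while for PFKP, P4HA2 and ENO2 the library labelled OCI-LY10 control sits with TMD8.

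Further genes of the pathway were read from lists outside the 36, in OCI-LY10 with STAT3 shRNA against control. Of 7 other glycolytic genes tested, 1 rose and 2 fell (limma, adjusted p below 0.05), beside 20.3% and 17.4% of all genes, and the lists that follow are read against the same shares. ENO3, the muscle enolase, fell from 37.4 FPKM to 1.56 and 1.006 and stood at 43.6 to 50.8 in TMD8. PFKFB2, a relative of PFKFB3, fell from 2.81 FPKM to 0.890 and 1.14. PGM2, a phosphopentomutase, rose from 9.92 to 23.1 and 20.0. Of 10 other components of the HIF pathway, HIF1AN rose and EGLN2 fell. HIF1AN, the asparaginyl hydroxylase that blunts HIF1A activity, went from 8.36 FPKM to 16.1 and 16.6, and EGLN2, another prolyl hydroxylase, from 80.9 to 29.2 and 28.1. ARNT, the partner of HIF1A, was at 12.1 FPKM in control and 10.6 and 14.2 with the shRNAs, and VHL at 15.9 against 31.5 and 25.4, neither with a call.

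Of 22 other HIF targets tested, 3 rose and 4 fell, which is near or below the shares of all genes (20.3% and 17.4%). The highest were RORA, STC2 and ERO1A. RORA, a nuclear receptor, went from 0.363 FPKM to 4.58 and 4.22. STC2, a secreted glycoprotein, was listed at 0 in control against 2.06 and 2.14. Both RORA and STC2 passed the filter only through the shRNA libraries, where they are high. The oxidoreductase ERO1A went from 11.97 to 19.3 and 20.1. The lowest were the chemokine receptor CXCR4, from 42.4 FPKM to 1.54 and 1.27, NRN1, from 23.96 to 4.41 and 6.10, and the glycogen synthase GYS1, from 50.7 to 17.5 and 21.1. In TMD8, RORA was at 0.407 to 0.575 FPKM, STC2 at 0 to 0.00858 and CXCR4 at 55.3 to 66.9, nearer control than the shRNA libraries. ERO1A at 16.1 to 17.7, NRN1 at 6.81 to 9.91 and GYS1 at 29.4 to 31.2 lay between control and the shRNA libraries. Of 5 other sugar and monocarboxylate transport genes tested, 3 rose and 0 fell (limma, adjusted p below 0.05), and at an unadjusted p below 0.05 the counts were the same. BSG, the chaperone of lactate carriers, rose from 47.6 FPKM to 152 and 161, SLC2A5, a fructose transporter, from 29.7 to 89.0 and 84.3, and SLC16A7, a further monocarboxylate carrier, from 1.37 to 3.83 and 3.35.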

How the data were processed

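RNA-seq was described for 6 libraries, 3 in OCI-LY10 and 3 in TMD8. The authors deposited 1 FPKM value per gene and library. TopHat, Bowtie2 and hg19 are named, without role or version, per the submitters' processing notes. The tool behind FPKM, its annotation, any scaling between libraries and the use of strand: not given in the sources used here. OCI-LY10 columns were matched to samples by name. TMD8 columns have no name and were used by position, with no comparison between shRNAs.

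Rows of 2 repeated symbols were summed, and 4 list genes were found under an older symbol. In OCI-LY10, genes averaging 1 FPKM or more (11162) were tested with limma 3.58.1 in R 4.3.3 on log2(FPKM + 1) (trended empirical Bayes, two-sided test, Benjamini-Hochberg over all genes, threshold 0.05). The 2 shRNA libraries were set against the single control, leaving 1 residual and 1.64 prior degrees of freedom, and the fit was tested on simulated data. Labels do not say whether libraries came from separate cultures. Fold changes on this scale understate those of low genes. Total read counts are unknown. The commonest ratio between values under 0.1 FPKM gave a depth of 1.52 for control and 0.731 for shRNA 16, relative to shRNA 10. Alternatives changed the pseudocount, filter, scaling, small RNA genes and libraries used.

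All 36 members are named. From each further list, at most the 3 highest and 3 lowest called genes are named; ARNT, VHL and the HIF targets that differed between the shRNAs were added after their values were seen. Members and lists were chosen with earlier results of these data known.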

Additional observations from a re-analysis of the deposited data

How the results depend on the processing

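Counts of members called with STAT3 shRNA against control in OCI-LY10 were 2 higher and 3 lower as reported. They were 1 higher and 2 lower without the filter on low values. The counts were the same for genes of mean 5 FPKM or more, where NDRG1 and P4HA2 were not tested. A pseudocount of 0.1 FPKM gave 2 higher and 2 lower, and a pseudocount of 5 FPKM gave 3 and 3. There were 4 higher and 3 lower with quantile normalization, and 4 higher and 6 lower with small RNA genes left out. In that last setting GPI, PFKP, GAPDH, SLC16A1 and DDIT4 passed as well. The shares of all genes called under these settings are not given here, so these counts cannot be read against all genes. The median log2 change ran from -0.15 to 0.19 when either shRNA was left out. For 9 of the 34 members the 2 shRNAs lay on either side of control, so leaving out 1 shRNA turned their direction, none of them called. Of 235 single-gene values under other pseudocounts, filters and scalings or without small RNA genes, 221 kept direction and call. Among these, direction turned for HK1 (-0.017) and LDHB (0.072) with quantile normalization and for LDHA (-0.0068) with median-of-ratios scaling, all without a call. Between the shRNAs, 5 to 7 members were at least 1.5-fold higher with shRNA 16. In TMD8, 2 members varied 1.5-fold with a pseudocount of 0.1 FPKM, and 0 to 1 with a column left out. Across lines, 18 to 24 members ranked higher in OCI-LY10 and 1 to 5 lower with a library left out, and 20 and 1 with small RNA genes left out. Leaving out libraries for TMD8 and for ranks, and small RNA genes for ranks, was chosen after seeing the data. Apart from which genes or libraries entered, the cause of these shifts was not tested.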

Other observations

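A further list held the mitochondrial pyruvate carrier and the pyruvate dehydrogenase complex with its kinases and phosphatases. Of its 11 tested genes, 2 rose and 2 fell with the STAT3 shRNAs in OCI-LY10 (limma, adjusted p below 0.05). These counts were about the shares of all genes (20.3% higher and 17.4% lower). MPC1 and MPC2, which form the mitochondrial pyruvate carrier, rose from 7.48 FPKM in the library labelled control to 25.9 and 23.4 and from 17.5 to 27.0 and 28.1. PDHB and DLD, subunits of the pyruvate dehydrogenase complex, fell from 79.2 FPKM to 46.5 and 43.9 and from 76.2 to 39.4 and 33.1. TMD8 columns held MPC1 at 8.36 to 11.3 FPKM, MPC2 at 20.9 to 24.1, PDHB at 75.6 to 82.6 and DLD at 91.8 to 115.5.

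Of 4 other brakes on mTORC1 tested beside DDIT4, 2 rose and 0 fell with the STAT3 shRNAs (limma, adjusted p below 0.05, beside 20.3% and 17.4% of all genes), and 0 were lower at an unadjusted p below 0.05. SESN2 rose from 2.06 FPKM to 11.8 and 8.47 and TSC2 from 4.25 to 9.78 and 8.85, while DDIT4 was lower with both shRNAs.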
